A study of Mus musculus with 12 samples.

Results

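Complement is a cascade of plasma proteins and cell surface receptors, and monocytes and macrophages make several of its parts themselves. The classical pathway starts when C1q, assembled from the A, B and C chains, binds to antibody or dying cells and activates the serine proteases C1r and C1s, which cleave C4 and C2. The alternative pathway is built on C3 and factor B and is stabilized by properdin, and both routes release the fragments C3a and C5a, which draw and activate leukocytes through the receptors C3aR and C5aR1. In the liver most circulating complement comes from hepatocytes, and complement fragments are known for a role in the response to partial hepatectomy.

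The 10 genes described here were taken by symbol from the expression tables: the initiators C1qa, C1qb, C1qc and C1ra; C3, C4b and the alternative pathway genes Cfb (factor B) and Cfp (properdin); and the receptors C3ar1 and C5ar1. They are 10 of 52553 features in the tables, and all 10 passed the filter on low counts. RNA sequencing was done on monocytes taken with magnetic beads for CD115, the receptor encoded by Csf1r, from spleen and peripheral blood of male C57BL/6 mice. The 4 groups were spleen and blood of animals with intact spleen and liver, and spleen and blood of animals with intact spleen 24 h after a 70% liver resection, called post-resection below. Each group had 3 libraries, each library was a pool of cells of 5 mice, and the control animals were intact, with no sham operation given in the labels. Spleen cells went through mechanical disaggregation, collagenase, red cell lysis and Ficoll, and blood through Ficoll alone, so the tissue and the preparation cannot be told apart. No allele or transgene was given for any group, and in pooled bulk RNA a change in the number of cells of a type and a change in RNA per cell cannot be told apart. The p-values measure the spread between pools.

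Libraries held 36990033 to 46401368 estimated counts, and haemoglobin transcripts took 13.2% to 34.2% of the counts in blood against 0.0814% to 3.47% in spleen. Csf1r was present in all 12 libraries. The summed level of 8 neutrophil markers was highest in library 3 of post-resection spleen and library 3 of post-resection blood, so the counts below are also given without these 2 libraries, a choice made after seeing the data. Levels are given as CPM, the count of a gene scaled to library size with TMM factors, with mean ± SD over 3 libraries. A gene was called changed, in edgeR's quasi-likelihood test, at a Benjamini-Hochberg adjusted p under 0.05 over all 20135 features tested together with an absolute log2 fold change above 1; log2 fold changes are given with their standard error (SE).

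The 250 bases before the transcription start are shown for C1qb and C1qc, which lie next to each other with C1qa on chromosome 4 between Ephb2 and Epha8 and whose levels moved together in these libraries, and for C1ra, the initiator with the largest change in blood. They come from RefSeq on build GRCm38.p6, in which 7 of the 10 genes matched (not C1qa, C4b and Cfb), and not from the build of the counts. C1qb covers chr4:136886201-136886450 on the minus strand, C1qc chr4:136892915-136893164 on the minus strand and C1ra chr6:124512371-124512620 on the plus strand, each written 5′ to 3′ towards the start, with the motif found in capitals.
C1qb: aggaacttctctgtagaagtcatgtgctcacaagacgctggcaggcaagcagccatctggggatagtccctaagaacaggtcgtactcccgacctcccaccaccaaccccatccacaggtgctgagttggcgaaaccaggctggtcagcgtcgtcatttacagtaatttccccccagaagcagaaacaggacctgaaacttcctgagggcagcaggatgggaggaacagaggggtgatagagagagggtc
C1qc: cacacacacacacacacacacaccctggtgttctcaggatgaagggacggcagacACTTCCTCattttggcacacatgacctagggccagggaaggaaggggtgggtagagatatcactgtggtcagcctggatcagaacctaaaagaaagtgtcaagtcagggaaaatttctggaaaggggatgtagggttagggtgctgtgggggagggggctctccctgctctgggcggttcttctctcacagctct
C1ra: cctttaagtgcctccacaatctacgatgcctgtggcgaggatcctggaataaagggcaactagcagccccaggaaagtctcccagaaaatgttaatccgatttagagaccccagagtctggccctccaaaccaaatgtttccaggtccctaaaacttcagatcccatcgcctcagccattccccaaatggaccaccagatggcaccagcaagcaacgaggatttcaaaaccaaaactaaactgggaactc
The capitals in C1qc mark ACTTCCTC, the reverse complement of the PU.1 motif GAGGAAGT (PU.1 is a transcription factor of the myeloid lineage), at positions -195 to -188. It was the single match in the 7 sequences, on either strand, of the 5 motifs searched: PU.1; the STAT site GAS, TTCNNNGAA; the interferon-stimulated response element core, GAAA repeated after a gap of any 2 bases; NF-kB, GGGA, TT and CC with any base between them; and C/EBP, TTGCGCAA. With a single match there was no overlap between motifs. Of all 32851 promoter sequences of the same length, 2.44% held the PU.1 motif, 7.02% GAS, 2.98% the response element core, 0.98% NF-kB and 0.164% C/EBP. Such matches describe letters and not binding.

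The first comparison asked how blood monocytes differed 24 h after liver resection from those of intact animals. Of the 10 complement genes, 9 rose in blood after resection and none fell, against 13.9% of all features called in either direction, 7.8% higher and 6.11% lower. Cfb was the exception. The 10 genes were chosen with earlier results of these data known, so this count and those below are descriptions. The C1q chains, whose levels moved together, count as 3 of the 9. The median log2 fold change of the 10 genes was 2.21, against -0.10 for all features. Without library 2 of post-resection blood 5 genes were called in blood, against 1770 of 21192 features. Without library 3 of both post-resection groups 9 were, with Cfb called and C4b not, against 1823 of 20806 features. In the spleen 1 of the 10 genes, C1ra, was called, against 1.38% of all features (0.78% higher and 0.596% lower). The median there was 1.42 against 0.05 for all features, and 9 of 10 values were positive. DESeq2 called 6 of the 10 in spleen, against 1564 of 20135 features. In edgeR 6 genes had an unadjusted p under 0.05, a count that was not made over all features, here or below. Without library 3 of both post-resection groups C1ra lost its call in spleen (1.43) and no other gene gained one, against 38 of 20806 features called.

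**Figure D1:**
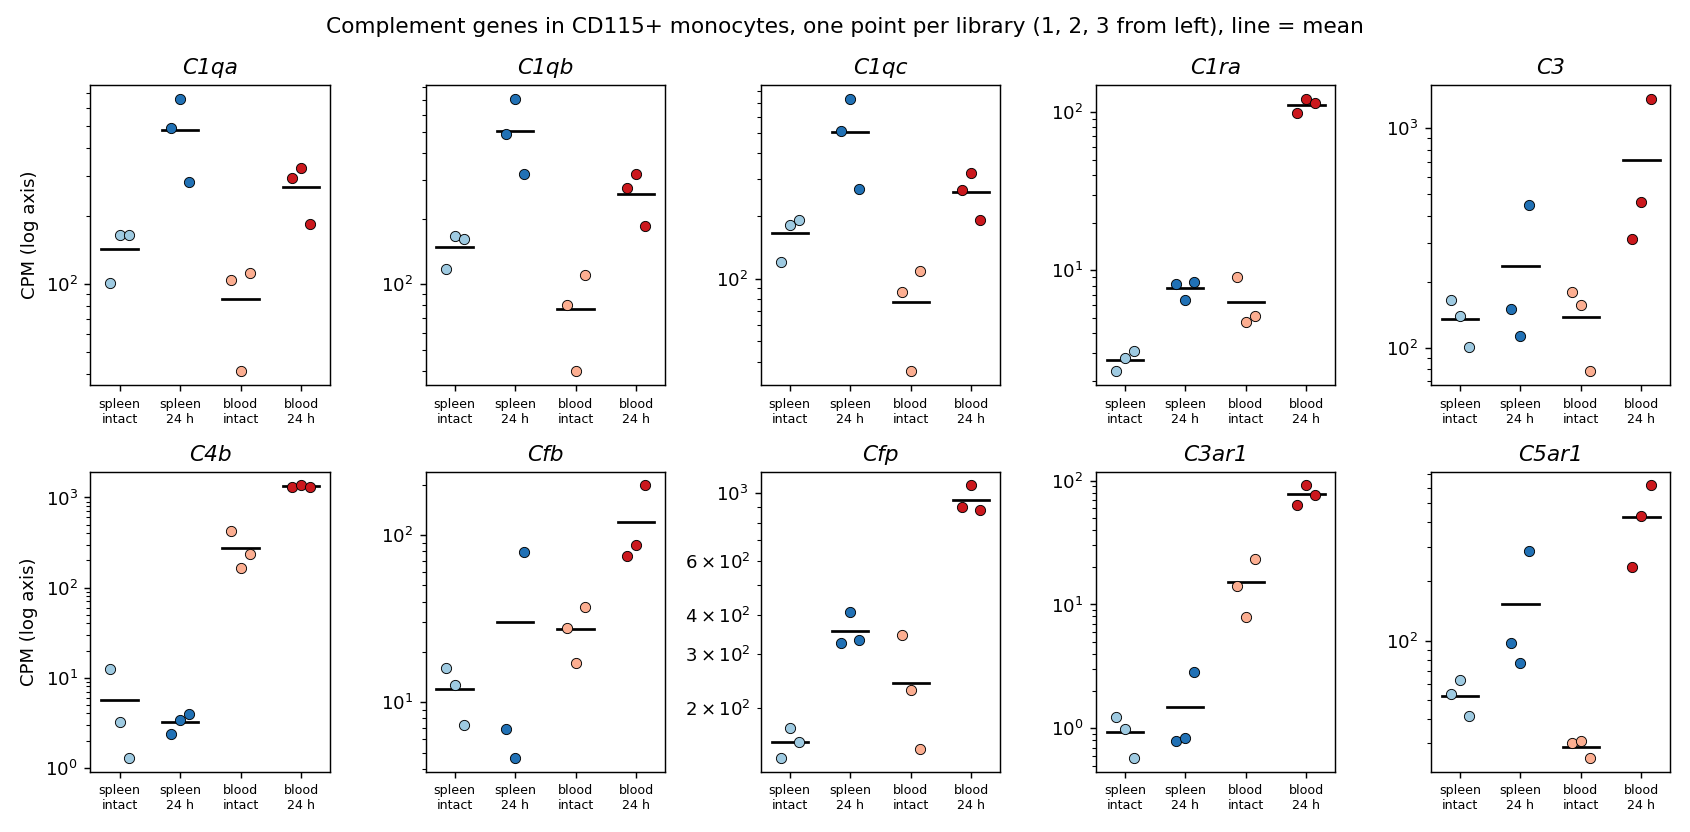
Level of each of the 10 complement genes as TMM-scaled CPM on a log axis, with 1 point for each library in order 1 to 3 from the left and a line at the group mean; "24 h" marks the post-resection groups. C1ra, C4b, Cfp and C3ar1 sit highest in all 3 post-resection blood libraries, whereas the 3 C1q chains have their highest mean in post-resection spleen.

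The 3 chains of C1q, the recognition molecule of the classical pathway, moved together. C1qa was at 101, 164 and 165 CPM in intact spleen, 492, 663 and 282 in post-resection spleen, 105, 41.0 and 112 in intact blood, and 295, 328 and 184 in post-resection blood. Both post-resection groups lay wholly above the intact group of the same tissue, and the means were ordered post-resection spleen (479 ± 191), post-resection blood (269 ± 75.2), intact spleen (143 ± 36.5) and intact blood (86.0 ± 39.2). Of the neighbours in that order only post-resection blood and intact spleen did not overlap.

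C1qb followed with 117, 167 and 161 CPM in intact spleen, 487, 711 and 320 in post-resection spleen, 80.7, 39.9 and 111 in intact blood, and 276, 320 and 185 in post-resection blood. Here all neighbouring groups were apart, though the lowest post-resection spleen library and the highest post-resection blood library both rounded to 320 CPM. C1qc was at 121, 182 and 192 CPM in intact spleen, 511, 734 and 270 in post-resection spleen, 86.6, 35.9 and 109 in intact blood, and 266, 323 and 192 in post-resection blood. Its order was the same, with only intact spleen and intact blood apart among neighbours.

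In blood all 3 chains rose after resection. The log2 fold change was 1.64 (SE 0.43, edgeR adjusted p = 0.0247) for C1qa, 1.76 (SE 0.40, adjusted p = 0.0140) for C1qb and 1.76 (SE 0.46, adjusted p = 0.0231) for C1qc, which are 3.13-fold, 3.38-fold and 3.38-fold. The C1qa call was lost without library 1 (1.60) or 2 (1.50) of post-resection blood, without library 2 of intact blood (1.34), and with only the blood libraries in the fit (1.65); the C1qc call was lost without library 2 of post-resection blood (1.59) and with only the blood libraries (1.76). In spleen the sizes were much the same, 1.74 (SE 0.44, edgeR adjusted p = 0.0690), 1.77 (SE 0.40, adjusted p = 0.0534) and 1.61 (SE 0.45, adjusted p = 0.0908), but none was called, although DESeq2 called all 3. Without library 3 of intact blood, whose spread counts in the common fit, C1qa (1.74) and C1qb (1.77) were called in spleen as well. That fit called 1025 of 21062 features in spleen. The difference between the blood and the spleen effect was -0.09 (SE 0.60) for C1qa, -0.01 (SE 0.55) for C1qb and 0.14 (SE 0.63) for C1qc. None was called different between tissues, which with errors of this size does not show that the effects were equal.

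Within each library the chains kept a near constant ratio. Over the 12 libraries C1qa took 29.9% to 38.5% of the counts of the 3 chains, C1qb 29.7% to 36.7% and C1qc 30.7% to 37.2%, while the sum of the 3 went from 117 CPM in the lowest intact blood library to 2108 CPM in the highest post-resection spleen library. Pearson correlations of log2 CPM between the chains were 0.991 to 0.994 over 12 libraries, which share groups and scaling. The gene outside the group most like each chain was Fcna, ficolin A, a lectin that starts complement activation and is made by macrophages, with r of 0.968 for C1qa, 0.950 for C1qb and 0.965 for C1qc. Next came Frmd4b (0.945) and Tm7sf3 (0.937) for C1qa, Tm7sf3 (0.940) and Tspan4 (0.938) for C1qb, and Tspan4 (0.949) and Scamp5 (0.931) for C1qc.

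C1q is a product of tissue macrophages. By the median of the summed level of 8 red pulp macrophage markers, the 4 groups had the same order as by the C1q means. That sum was 1282 to 2003 CPM in intact spleen, 2301 to 4697 in post-resection spleen, 178 to 517 in intact blood and 1992 to 2634 in post-resection blood. In post-resection blood most of the sum was Adgre1, Hmox1 and Cd5l, with means of 914, 697 and 529 CPM. In blood 6 of the 8 markers rose after resection and in spleen 1 did. Axl went the other way in blood without a call, from a mean of 34.3 CPM in intact to 9.19 CPM in post-resection animals. The defining red pulp genes stayed low in blood, with Spic at 1.98, 3.53 and 6.42 CPM after resection against 93.4, 126 and 75.0 in post-resection spleen, and Vcam1 at 1.37, 4.48 and 4.78 CPM against 916, 1572 and 377. The sum of 8 peritoneal macrophage markers also rose in blood, from 436 to 1225 CPM in intact to 4879 to 5413 CPM in post-resection animals. In spleen that sum was 50.2 to 71.9 CPM. The part of either kind of macrophage in the C1q values was not tested.

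C1ra, the protease that C1q activates first, changed the most of the 10 genes in blood. Its level was 9.11, 4.70 and 5.11 CPM in intact blood and 98.0, 121 and 114 CPM in post-resection blood, whereas spleen had 2.29, 2.78 and 3.11 CPM in intact and 8.17, 6.53 and 8.46 CPM in post-resection animals. All 3 post-resection blood libraries stood far above every other library, and post-resection spleen and intact blood were the only neighbouring groups that overlapped. The log2 fold change was 4.14 (SE 0.27, edgeR adjusted p = 0.000236; 17.6-fold) in blood and 1.50 (SE 0.25, adjusted p = 0.0253; 2.83-fold) in spleen. The blood call held under each alternative run, with log2 fold changes of 3.98 to 4.55.

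C1ra was also the only one of the 10 genes whose response edgeR called different between the tissues, by 2.64 (SE 0.35, edgeR adjusted p = 0.0317), against 0.283% of all features called in that test (0.219% higher in blood and 0.0646% lower). DESeq2 called the difference for 3 of the 10, C1ra, C4b and C5ar1, against 1163 of 20135 features. The spleen call and the call of the difference both lay close to the threshold. The spleen call was lost without library 1 (1.39), 2 (1.52) or 3 (1.60) of intact spleen, 1 (1.46) or 3 (1.43) of post-resection spleen, or 1 (1.49) or 2 (1.49) of post-resection blood, and the difference was lost without library 1 (2.75), 2 (2.62) or 3 (2.54) of intact spleen, 1 (2.68) or 2 (2.53) of post-resection spleen, 2 (2.58) or 3 (2.65) of post-resection blood or 2 (2.49) of intact blood. Over the 12 fits that left out 1 library the spleen value was 1.39 to 1.61 and the difference 2.49 to 3.06. With library 3 of both post-resection groups left out, the spleen value was 1.43 and the difference 2.71, neither called. Of all 20806 features in that fit, 38 were called in spleen and 34 for the difference.

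Blood exceeded spleen for C1ra in intact animals by 1.21 (SE 0.25, edgeR adjusted p = 0.0180) and after resection by 3.85 (SE 0.27, adjusted p = 7.45e-05). The intact call was lost without library 1 (1.20) or 2 (1.33) of intact spleen, without library 1 of intact blood (0.89) and with only the intact libraries in the fit (1.21). The near copy C1rb held at most 2.92% of the C1ra and C1rb counts in any library, and how the counting split reads between them was not stated. The genes most like C1ra over the 12 libraries were Yaf2 (r = 0.991) and Tmbim1 (0.985).

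**Figure D2:**
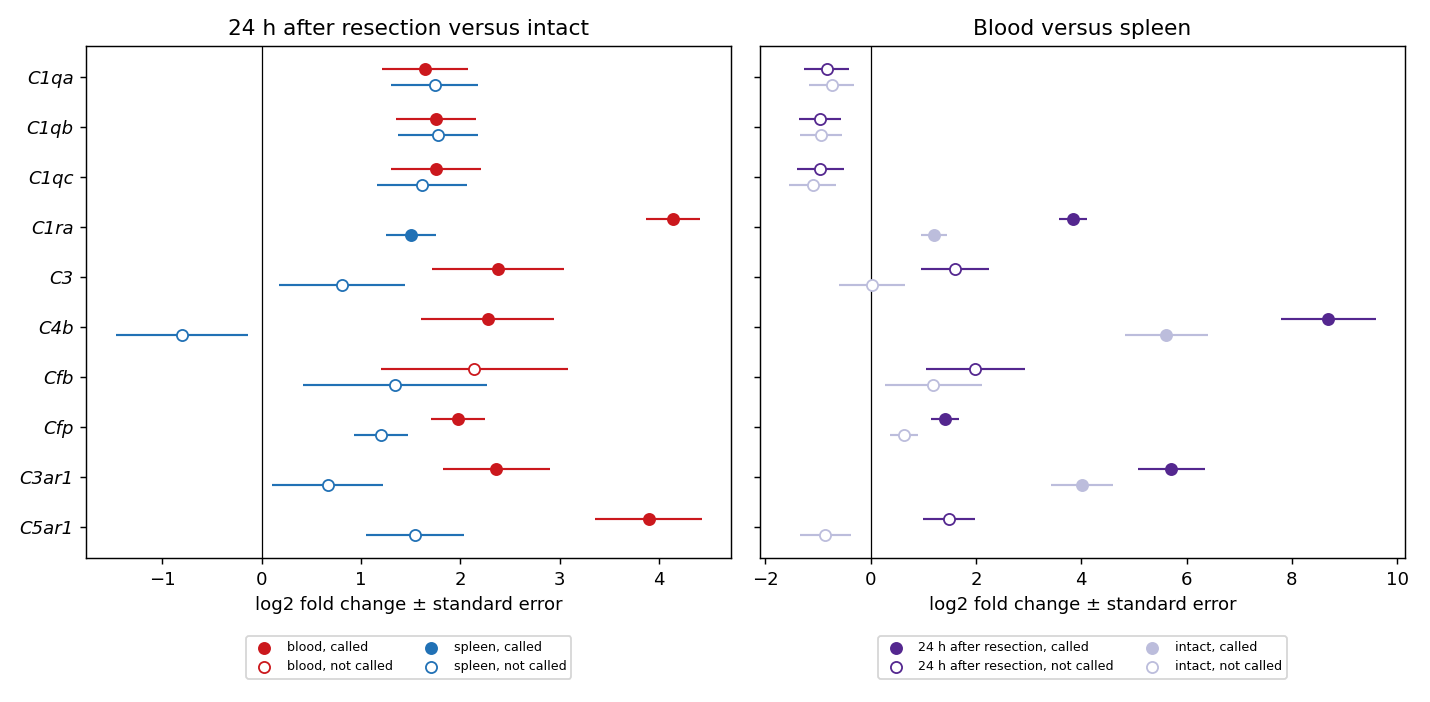
Log2 fold change with its standard error for each complement gene, on the left after resection in blood (red) and spleen (blue), on the right in blood against spleen in intact (pale) and post-resection (dark) animals; filled points were called. In blood 9 of 10 resection values are filled, in spleen only C1ra is, and C4b and C3ar1 lie farthest to the right in the tissue comparison.

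C4b, the substrate of the C1 complex, set blood apart from spleen more than any other of the 10 genes. It was at 12.3, 3.24 and 1.28 CPM in intact spleen, 2.36, 3.36 and 3.93 in post-resection spleen, 422, 163 and 239 in intact blood, and 1308, 1364 and 1310.05 in post-resection blood. No blood library came near a spleen library, and post-resection blood was the tightest group, with a mean of 1327 ± 31.7 CPM. Blood was higher by 5.61 (SE 0.79, edgeR adjusted p = 0.00366) in intact and by 8.69 (SE 0.90, adjusted p = 0.000571) in post-resection animals, and both calls held under each alternative run.

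The rise of C4b in blood after resection was 2.27 (SE 0.67, edgeR adjusted p = 0.0383; 4.83-fold), near the threshold. It was lost without any one of 9 libraries: library 2 of intact spleen or 1, 2 or 3 of post-resection spleen (2.27 each), 1 (2.29), 2 (2.25) or 3 (2.30) of post-resection blood, and 2 (2.01) or 3 (2.17) of intact blood; it was also lost with no filter on low counts (2.27) and without library 3 of both post-resection groups (2.30). In spleen the value was -0.80 (SE 0.67, adjusted p = 0.539) and turned to 0.50 without library 1 of intact spleen, which alone held 12.3 CPM. The difference between tissues, 3.08 (SE 0.94, adjusted p = 0.177), was not called by edgeR, and DESeq2 called it (3.12). The near copy C4a took 2.28% to 3.56% of the C4a and C4b counts in blood and 9.98% to 49.2% in spleen, where C4b was low, and how reads shared by the copies were split was not stated.

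C3, on which all routes of activation converge, spread widely within groups. Its level was 166, 140 and 100 CPM in intact spleen, 149, 113 and 445 in post-resection spleen, 179, 157 and 77.8 in intact blood, and 313, 461 and 1368 in post-resection blood. Library 3 was far above its partners in both post-resection groups, and all neighbouring groups overlapped. C3 rose in blood by 2.37 (SE 0.66, edgeR adjusted p = 0.0311; 5.18-fold) and was not called in spleen at 0.80 (SE 0.64, adjusted p = 0.515).

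The blood call for C3 was lost without library 3 of post-resection blood (1.50), without its library 2 (2.59), without library 1 (2.63), 2 (2.47) or 3 (2.08) of intact blood, without library 2 of intact spleen (2.37), with only the blood libraries (2.37) and with the row named C3 alone (2.15), since a matched accession row held up to 36.2% of its counts. In spleen the value was -0.039 without library 3 of the post-resection group. Neutrophil markers, 8 genes of which S100a8 and S100a9 made up most of the sum, came to 4648 and 5017 CPM in 2 post-resection spleen libraries against 13994 in library 3, and to 3412 and 4148 CPM in 2 post-resection blood libraries against 18714 in library 3, with 771 to 1732 in intact spleen and 90.7 to 313 in intact blood. Ly6g (27.9, 28.0 and 26.4 CPM) and Camp (55.2, 105 and 79.1 CPM) were not highest in library 3 of post-resection spleen, nor was Camp (35.2, 22.0 and 16.1 CPM) in that of post-resection blood. All 8 rose in blood after resection and 1 of 8 in spleen. Their part in the C3 values was not tested.

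Cfb encodes factor B, the protease of the alternative pathway convertase. It was at 16, 12.7 and 7.26 CPM in intact spleen, 6.96, 4.63 and 79.4 in post-resection spleen, 27.7, 17.3 and 37.0 in intact blood, and 75.3, 87.2 and 198 in post-resection blood. The 3 post-resection blood libraries were all above intact blood, but the log2 fold change of 2.14 (SE 0.94, edgeR adjusted p = 0.133) was not called; DESeq2 called it (2.17), as did the fit without library 3 of post-resection spleen (2.14), the fit without library 3 of both post-resection groups (1.61) and the fit of blood alone (2.14). In spleen the value of 1.34 (SE 0.93, adjusted p = 0.448) was -1.05 without library 3. Library 3 is the library with the high neutrophil sum in both groups, as for C3, and the part of that in Cfb was not tested. Cfb lies next to C2 on chromosome 17, and reads shared by these neighbours were not examined.

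Cfp, properdin, had the smallest errors of the 4 genes of this set. The 3 libraries were at 137, 172 and 155 CPM in intact spleen and 325, 410 and 331 in post-resection spleen, and at 344, 229 and 147 in intact blood and 898, 1058 and 883 in post-resection blood. In both tissues every post-resection library was above every intact one. Cfp rose in blood by 1.98 (SE 0.27, edgeR adjusted p = 0.00171; 3.94-fold), a call that held under each alternative run at 1.72 to 2.36. In spleen it reached 1.20 (SE 0.27, adjusted p = 0.0517), just short of the threshold, and was called by DESeq2 (1.18), in the fit of spleen alone (1.19) and without library 3 of intact blood (1.20).

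Blood exceeded spleen in Cfp after resection by 1.41 (SE 0.27, edgeR adjusted p = 0.00690) and was not called higher in intact animals at 0.63 (SE 0.27, adjusted p = 0.167). The genes most like Cfp were Ftl1 (r = 0.991), the ferritin light chain, Hacd4 (0.988) and Pi4k2b (0.971). Among the 10 genes its closest partner was C1ra (r = 0.955).

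The receptor gene C3ar1, for the anaphylatoxin C3a, was far higher in blood than in spleen. It was at 1.24, 0.981 and 0.575 CPM in intact spleen, 0.794, 0.830 and 2.83 in post-resection spleen, 14, 7.91 and 23.3 in intact blood, and 64.1, 91.6 and 76.5 in post-resection blood. Each blood library was above each spleen library. Blood was higher by 4.01 (SE 0.59, edgeR adjusted p = 0.00448; 16.1-fold) in intact and by 5.71 (SE 0.63, adjusted p = 0.000753; 52.3-fold) in post-resection animals. After resection it rose in blood by 2.36 (SE 0.54, adjusted p = 0.0137; 5.13-fold), and these 3 calls held under each alternative run. In spleen it was at 0.66 (SE 0.56, adjusted p = 0.543), which became -0.20 without library 3 of the post-resection group.

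C4b and C3ar1 ran together over the 12 libraries (r = 0.970), and the genes most like them were Bcam (0.989), Prg4 (0.987) and Ltbp1 (0.980) for C4b and Gprc5b (0.987), Pmp22 (0.984) and Ltc4s (0.983) for C3ar1. Prg4, lubricin, is one of the 8 peritoneal macrophage markers, whose sum was 64.9 to 71.9 CPM in intact spleen, 50.2 to 53.6 in post-resection spleen, 436 to 1225 in intact blood and 4879 to 5413 in post-resection blood. Gata6, the transcription factor that defines resident peritoneal macrophages, was at 0 to 0.163 CPM in spleen, 2.85 to 5.86 in intact blood and 17.7 to 23.7 in post-resection blood. In blood 7 of the 8 markers rose after resection, 7 were higher in blood than in spleen in intact animals and 8 after resection. Their part in the C4b, C3ar1 and C1ra values was not tested.

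C5ar1, the receptor for C5a carried by neutrophils, monocytes and macrophages, had the strongest rise in blood after C1ra. It was at 30.3, 30.9 and 25.2 CPM in intact blood and 236, 430 and 617 CPM in post-resection blood, and at 53.2, 62.7 and 41.1 CPM in intact spleen and 97.1, 76.5 and 284 CPM in post-resection spleen. In both tissues the groups were apart, and intact blood was the lowest group of the 4. The log2 fold change was 3.89 (SE 0.54, edgeR adjusted p = 0.00178; 14.9-fold) in blood, a call kept under each alternative run at 3.56 to 4.19, and 1.54 (SE 0.49, adjusted p = 0.116) in spleen, which DESeq2 called (1.53) and which was 0.73 without library 3 of post-resection spleen.

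The difference between tissues, 2.35 (SE 0.69, edgeR adjusted p = 0.166), was not called, though DESeq2 (2.39) and the fit without library 3 of post-resection spleen (3.16) called it. Blood against spleen was -0.86 (SE 0.48, adjusted p = 0.300) in intact and 1.49 (SE 0.49, adjusted p = 0.0590) in post-resection animals; the latter was called with RLE scaling (1.60), by DESeq2 (1.60), without library 3 of post-resection spleen (2.40), without library 1 of post-resection blood (1.88), without library 3 of intact blood (1.59) and without library 3 of both post-resection groups (2.05). The neutrophil marker sum given above for C3 was lowest in intact blood, as was C5ar1, both were highest in library 3 within each post-resection group, and the part of these cells was not tested. The most alike genes were Atp6v0c-ps2 (r = 0.987), P2ry2 (0.986), a nucleotide receptor, and Cers2 (0.986), and among the 10 genes C3 (r = 0.891).

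**Figure D3:**
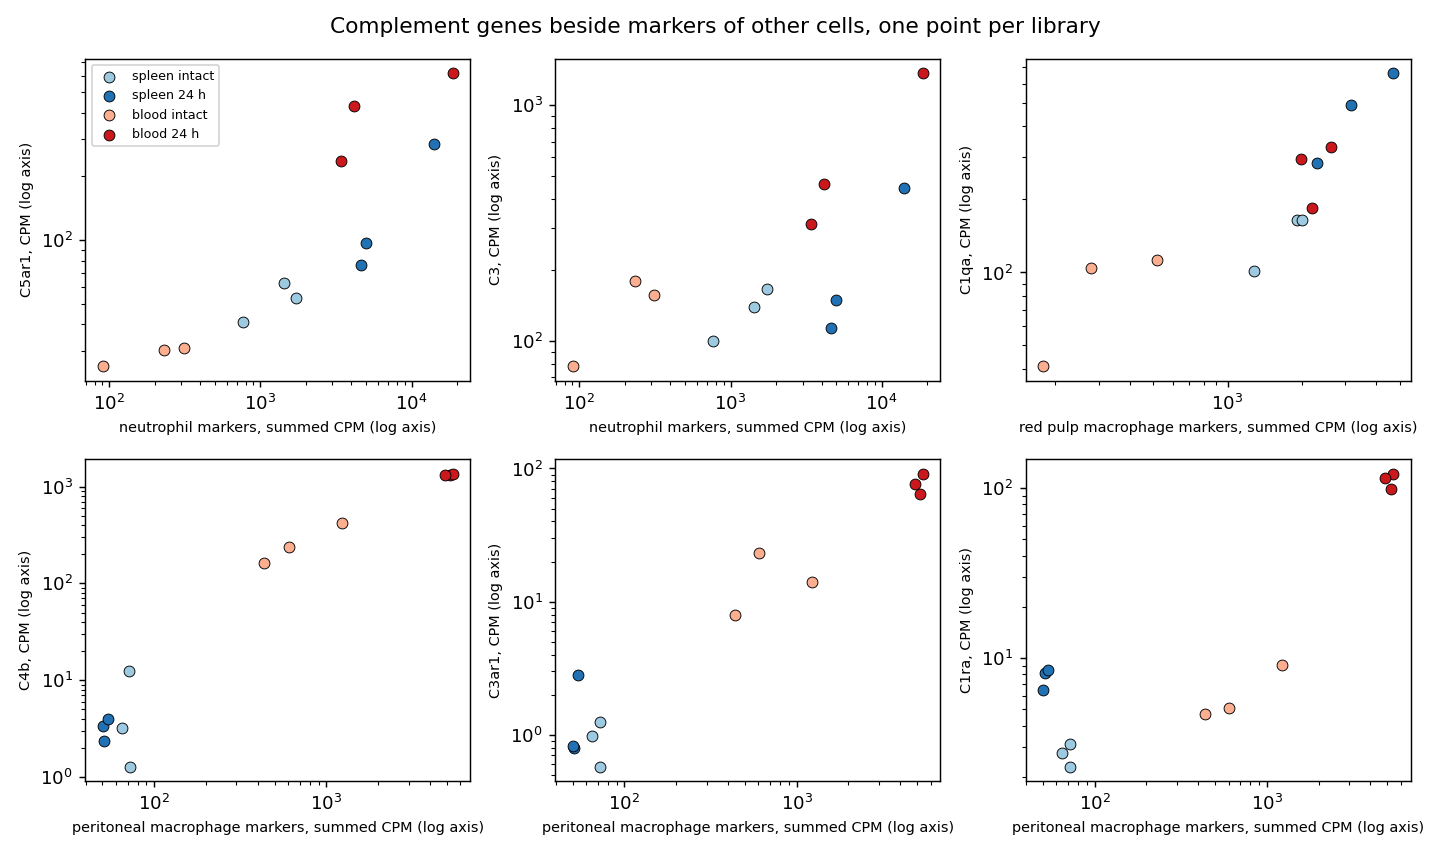
CPM of complement genes against the summed CPM of marker genes of other cells, both on log axes, with 1 point for each library. The 2 libraries farthest to the right for neutrophil markers are library 3 of post-resection spleen and library 3 of post-resection blood, and the 3 post-resection blood libraries stand apart at peritoneal macrophage sums of 4879 to 5413 CPM.

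The markers of other cells that could make complement differed in level. Fibroblast markers summed to 2.07 to 2.77 CPM in intact spleen, 4.93 to 5.06 in post-resection spleen, 5.04 to 9.07 in intact blood and 19.4 to 28.7 in post-resection blood, with 1 of 7, Dcn, called higher in blood after resection and Lum at 3 counts or fewer in every library. In post-resection blood Dcn was at 8.51 to 9.34 CPM and Col3a1 at 5.68 to 12.5 CPM. Against spleen, 3 of the 7 fibroblast markers were called higher in blood of intact animals, and 4 higher and 2 lower after resection. Mesothelium markers reached 6.81 CPM, with 3 of 6 called higher in blood than in spleen of intact animals and 5 after resection. Hepatocyte markers reached 1.88 CPM at most, none of the 6 hepatocyte genes passed the filter, and Apoa1 was at 3 counts or fewer throughout. Kupffer cell markers summed to 4.55 to 331 CPM, and Clec4f, which defines these cells, was at 0 in all post-resection libraries. Of the 5 other Kupffer cell markers Slc16a9 was called higher in blood after resection (3.19), and Marco (3.63) and Folr2 (1.85) were apart between the groups without a call. In post-resection spleen Marco was at 21.5, 5.07 and 321 CPM against 1.75 to 3.61 CPM in intact spleen, a difference of 5.49 that was not called. The part of these cells in the complement values was not tested. The 8 monocyte markers summed to 1422 to 1912 CPM in intact spleen, 1693 to 3251 in post-resection spleen, 666 to 1684 in intact blood and 1722 to 2130 in post-resection blood. The 6 B cell markers summed to 4556 to 5162, 1233 to 3950, 537 to 2406 and 781 to 1862 CPM in the same order. In intact spleen the B cell sum was thus above the monocyte sum in every library, though sums over different genes do not give shares of cells. Conventional dendritic cell markers summed to 22.5 to 119 CPM over the 12 libraries. Of the monocyte markers 2 rose and 1 fell in blood after resection, and no B cell or dendritic cell marker was called in that comparison.

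The second question was how the cells taken for CD115 from blood and spleen differed. Of the 10 genes, 3 were called higher in blood than in spleen of intact animals (C1ra, C4b and C3ar1) and none lower, against 7.35% of all features called (3.86% higher and 3.49% lower), and after resection 4 were (C1ra, C4b, Cfp and C3ar1), against 13.2% (6.28% higher and 6.87% lower). The median log2 difference of the 10 was 0.33 in intact and 1.54 in post-resection animals, against -0.02 and -0.14 for all features; leaving out haemoglobin genes moved the latter medians to 0.10 and -0.02 and changed no count of the 10. Without library 3 of both post-resection groups 3 and 6 were called, against 1351 and 1862 of 20806 features. The C1q chains leaned the other way, with -0.74 (SE 0.43), -0.94 (SE 0.39) and -1.10 (SE 0.45) in intact and -0.83 (SE 0.43), -0.96 (SE 0.39) and -0.95 (SE 0.45) in post-resection animals for C1qa, C1qb and C1qc, none of them called. C3 was at 0.03 (SE 0.63) in intact animals and 1.60 (SE 0.65) after resection, and Cfb at 1.19 (SE 0.92) and 1.99 (SE 0.94), also not called; without library 3 of post-resection spleen the post-resection values were 2.54 for C3 and 4.47 for Cfb, both called. The tissue and the resection comparisons share libraries.

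Per kb of the longest coding transcript, the order of levels differed between groups. This scaling compares genes only roughly, since the transcripts expressed here and the annotation behind the counts were not known. In intact spleen the C1q chains led with means of 138, 136 and 137 CPM per kb for C1qa, C1qb and C1qc, followed by Cfp (94.6), C3 (26.3) and C5ar1 (20.6), and Cfb (4.36), C4b (1.04), C1ra (0.914) and C3ar1 (0.217) were far lower. In post-resection blood Cfp led with 578 ± 59.2 CPM per kb, then C1qa (259), C4b (247), C1qb (239), C1qc (217), C5ar1 (168) and C3 (139), and Cfb (43.7), C1ra (37.3) and C3ar1 (18.0) closed the order. The means of C1qa, C4b, C1qb and C1qc there differed by less than the SD of C1qa (72.3). In post-resection spleen the chains again led, at 460, 465 and 420 CPM per kb, and in intact blood Cfp (147) was above C1qa (82.7), C1qb (70.8) and C1qc (64.2), with C4b at 51.1.

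A list of 47 further complement genes was examined for the same comparisons, and 30 of them passed the filter. This list was also chosen with earlier results of these data known. In blood after resection 13 of the 30 rose and none fell (median 1.06), against 13.9% of all features called (7.8% higher); in spleen 1 rose and none fell, against 1.38% (0.78% higher). Among other initiators and proteases 8 of 10 tested rose in blood. C1rl, a C1r-like protease, rose by 3.57 (SE 0.61, edgeR adjusted p = 0.00402) and C1s1, the C1s protease, by 3.57 (SE 0.57, adjusted p = 0.00307), the latter from 0.358, 0.591 and 0.939 CPM to 4.76, 7.24 and 10.6 CPM. Both were highest in library 3 of both post-resection groups, with C1rl at 32.7, 36.9 and 74.3 CPM in blood and 11.9, 8.75 and 34.4 CPM in spleen. These are the libraries with the high neutrophil sum, whose part was not tested. The near copies C1rb (4.39, SE 1.25) and C1s2 were also called, both from few counts. C1rb held 6, 0 and 3 counts in the intact blood libraries, so the size of its rise is poorly set. C1s2, at 1 to 2 counts in the intact blood libraries, was at least 8.38-fold higher when set against a floor of 3 counts per library.

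Fcna and Fcnb, the ficolins, rose in blood by 1.96 (SE 0.51) and 2.04 (SE 0.49), C4a by 1.91 (SE 0.34) and C2, the partner of C4 in the classical convertase, by 1.02 (SE 0.32). C2 was the only one of the 30 that rose in spleen, by 1.64 (SE 0.32, edgeR adjusted p = 0.0378), from 2.65, 3.74 and 5.73 CPM to 12.6, 12.3 and 12.7 CPM. That count of 1 was 9 with DESeq2, which called 1564 of 20135 features. It was 0 without library 3 of both post-resection groups, against 38 of 20806 features. None of the 30 was called in the difference between the tissues by edgeR, against 0.283% of all features, with 8 at an unadjusted p under 0.05. DESeq2 called 4 of them, against 1163 of 20135 features.

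Of 3 terminal pathway genes and 8 regulators tested edgeR called none in blood or spleen after resection, against 13.9% and 1.38% of all features, with 2 regulators at an unadjusted p under 0.05 in each tissue and 1 terminal pathway gene in spleen. In blood 1 regulator passed the adjusted p (edgeR adjusted p = 0.00885) and missed only the fold threshold (0.67). In spleen Serping1 was at 2.52 (SE 0.61, edgeR adjusted p = 0.0625), with the groups apart and few counts in intact spleen. Among 9 other receptors 5 rose in blood, against 7.8% of all features: Vsig4, the macrophage receptor for C3b fragments, by 2.46 (SE 0.60), Itgam by 2.58 (SE 0.68) and Itgb2 by 1.91 (SE 0.30), which together form complement receptor 3, Cd93 by 2.51 (SE 0.49) and Calr, calreticulin, by 1.11 (SE 0.18). Vsig4 went from 10.8, 5.04 and 7.36 CPM to 49.0, 53.3 and 25.6 CPM. Itgam, Itgb2 and Cd93 were highest in library 3 of both post-resection groups, the libraries with the high neutrophil sum, and Vsig4 and Calr were not. Itgam was at 2520, 3241 and 5038 CPM in post-resection blood and 270, 195 and 1412 CPM in post-resection spleen. Cd93 was at 199, 253 and 370 CPM and at 59.1, 51.4 and 175 CPM. The part of neutrophils in these values was not tested. Without library 2 of post-resection blood 8 of the 30 were called in blood in place of 13, against 1770 of 21192 features.

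**Figure D4:**
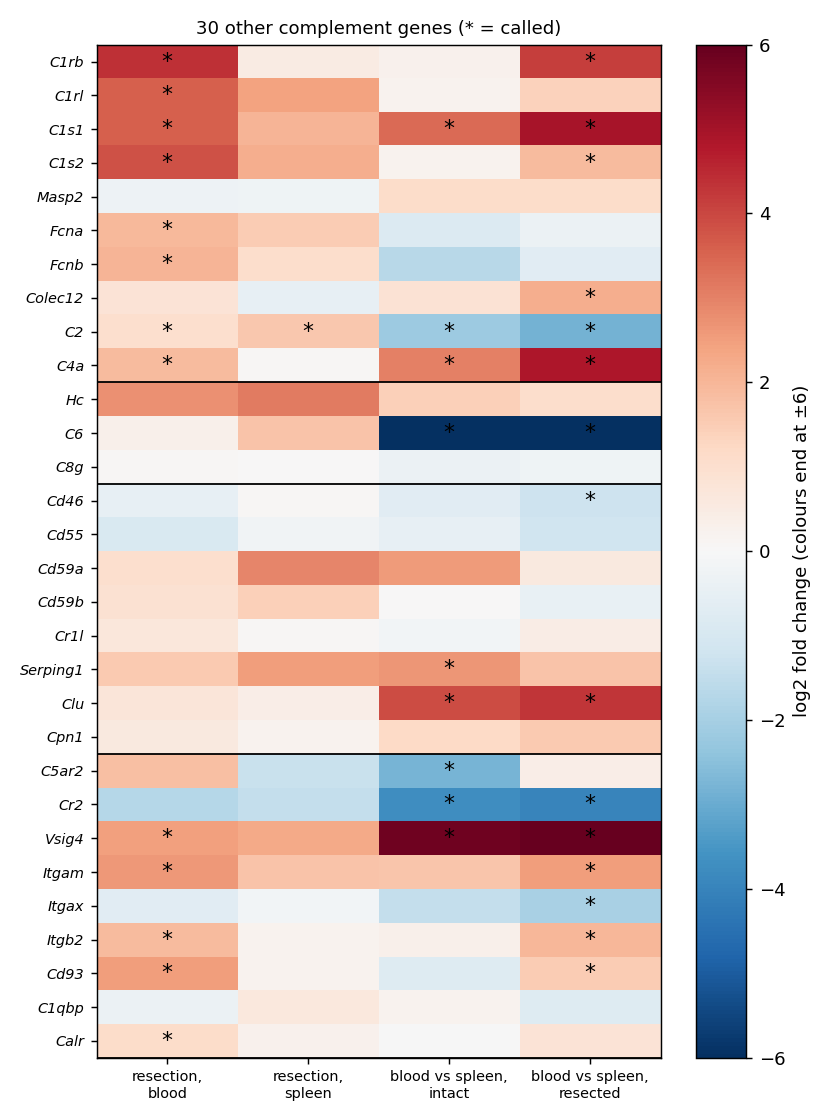
Log2 fold change of the 30 further complement genes tested in 4 comparisons, with red for higher after resection or in blood, blue for lower, and an asterisk for a call; the lines divide other initiators and proteases, terminal pathway, regulators and other receptors, and colours end at ±6. "Resected" marks the post-resection animals. The first column holds 13 asterisks and the second 1.

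Between the tissues 5 of the 30 were called higher and 4 lower in blood of intact animals, against 3.86% and 3.49% of all features, and 10 higher and 5 lower after resection, against 6.28% and 6.87%. C6, a part of the membrane attack complex, had the largest difference towards spleen among the 30. It was at 0.413, 0.719 and 0.262 CPM in intact blood against 30.3, 39.6 and 33.1 CPM in intact spleen, a log2 difference of -6.21 (SE 0.74, edgeR adjusted p = 0.00196), and -7.61 (SE 0.78) after resection. Cr2, complement receptor 2, a B cell gene, was lower in blood at -3.71 (SE 0.80) in intact and -3.98 (SE 0.81) in post-resection animals, beside B cell marker sums of 4556 to 5162 CPM in intact spleen and 537 to 2406 CPM in intact blood, a link that was not tested. C2 was lower in blood in both states, at -2.20 (SE 0.33) and -2.82 (SE 0.33), C5ar2 was lower in intact blood at -2.77 (SE 0.60), and Cd46 (-1.26) and Itgax (-1.96) were lower after resection.

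Vsig4 had the largest difference towards blood among the 30, at 5.82 (SE 0.73, edgeR adjusted p = 0.00238) in intact and 6.0 (SE 0.71) in post-resection animals. The peritoneal macrophage marker sum given above for C4b was also higher in blood in both states and highest after resection, and the part of these cells in the Vsig4 values was not tested. C1s1 (3.42 and 4.93), C4a (3.01 and 4.84) and Clu (3.92 and 4.29), clusterin, a regulator of the terminal pathway, were higher in blood in both states. Serping1, the C1 inhibitor, was called higher in intact blood only, at 2.67 against 1.73 (SE 0.57) after resection, and held 3, 4 and 5 counts in intact spleen. C1rb, C1s2, Colec12 (2.16), Itgam (2.52), Itgb2 (1.98) and Cd93 (1.53) were called higher in blood after resection only. Whether the difference in calls between the 2 states was itself a change was tested only by the difference of the resection effect between tissues. In that test edgeR called none of these genes, against 0.283% of all features. Itgb2 (1.69, unadjusted p = 0.00229), Cd93 (2.28, 0.00624), C1rb (3.90, 0.0432) and Colec12 (1.30, 0.0476) were at an unadjusted p under 0.05. So was C5ar2 (3.17, 0.00283), called lower in intact blood only and at 0.40 (SE 0.56) in blood against spleen after resection. DESeq2 called 4 of the 30 further genes there, against 1163 of 20135 features.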

How the data were processed

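RNA from CD115-positive monocytes of spleen and blood was measured in 12 libraries, 3 in each of 4 groups, with groups and replicate numbers taken from the labels. For each library the authors deposited a table of estimated counts, not scaled for depth or length. The submitters' processing notes name STAR and GRCm39, without a version; the counting tool, the annotation and the use of strand are not given in the sources used here. Each table had 67088 rows, of which 2558 unassigned transcripts (1.75% to 4.33% of a library) were left out. Rows of 1 gene were summed, with 25340 of 40274 accessions matched to a symbol through RefSeq names of GRCm38.p6, and rounded to whole numbers, which gave 52553 features. C3 thus holds its symbol row and 1 accession row, and C4a comes from an accession row alone. The chi-square per degree of freedom between libraries of a group was 19.7 to 560, so no library was a repeat of another.

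All 12 libraries entered 1 fit in edgeR 4.0.16 (R 4.3.3, limma 3.58.1). It used filterByExpr, TMM factors of 0.661 to 1.26 and a robust quasi-likelihood, two-sided test, with a common dispersion of 0.312. After the filter 20135 features were tested. The code was checked on simulated counts with a smaller dispersion than these data, so the check does not cover their spread. The SE is the absolute log2 fold change over the square root of F. Log2 CPM for correlations used a prior count of 2. A floor of 3 counts was 0.0626 to 0.102 CPM and covers counting error only. Alternatives were RLE factors, DESeq2 1.42.0, no filter on low counts, the symbol row alone, no haemoglobin genes, a block for the replicate number, the compared groups alone, each library left out, and library 3 of both post-resection groups left out, the last chosen after seeing the data. Named were the 10 genes, listed complement genes called in any comparison, near copies, and for each of the 10 the 3 genes of highest correlation with a mean of at least 10 CPM. A gene of the list and one of the correlated genes are not reported here. The members, gene lists and motifs were chosen with earlier results of these data known.

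Replicate numbers were not taken as pairs: correlations of deviations from group means between equally numbered libraries were -0.046 to 0.189. RefSeq coordinates of GRCm38.p6 are printed for promoters alone, since its build differs from that of the counts.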

Additional observations from a re-analysis of the deposited data

Results flagged for a closer look

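C1ra was the only one of the 10 complement genes whose resection effect edgeR called different between blood and spleen in a test of the difference itself. DESeq2 called 3 of the 10, against 1163 of 20135 features. The blood effect exceeded the spleen effect by 2.64 on the log2 scale (SE 0.35, edgeR adjusted p = 0.0317), with all 3 post-resection blood libraries (98.0 to 121 CPM) above all 3 intact ones (4.70 to 9.11 CPM) and all 3 post-resection spleen libraries (6.53 to 8.46 CPM) above all 3 intact ones (2.29 to 3.11 CPM). Over all alternatives run the difference was 2.49 to 3.06, with adjusted p of 5.71e-09 to 0.101: of 12 fits that left out 1 library 4 kept the call, and of 7 other alternatives 5 did.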

How the results depend on the processing

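Of all 20135 features DESeq2 called 3699 for blood after resection, 1564 for spleen after resection and 1163 for the difference between tissues. For blood against spleen it called 2568 in intact animals and 3627 after resection. The edgeR fits with 1 library left out tested 21042 to 21192 features. They called 1627 to 2814 of them for blood after resection, 1 to 1025 for spleen and 5 to 93 for the difference. For blood against spleen these fits called 531 to 1494 in intact animals and 1450 to 3625 after resection. Of the counts of the 10 genes called, that for blood after resection (9) was 10 with DESeq2 and 6 with the replicate block (2168 of 20135 features). It was 5 to 9 with 1 library left out, 5 being without library 2 of post-resection blood (1770 of 21192 features). The count for spleen after resection (1) was 6 with DESeq2, 0 with the replicate block (150 of 20135 features) and 2 with the compared groups alone (245 of 18393). With 1 library left out it was 0 to 4, 4 being without library 3 of intact blood (1025 of 21062 features). Without library 3 of both post-resection groups it was 0 (38 of 20806 features). For blood against spleen the count of 3 in intact animals was 2 to 3 with 1 library left out. The count of 4 after resection was then 4 to 7, 7 being without library 3 of post-resection spleen (2801 of 21042 features). For the difference between tissues (1) it was 3 with DESeq2, 0 with the replicate block (1 of 20135 features) and 0 to 2 with 1 library left out. It was 0 without library 3 of both post-resection groups (34 of 20806 features). Of the 30 further genes, the count of 13 in blood was 8 to 14 with 1 library left out, that of 1 in spleen was 9 with DESeq2, 0 to 4 with 1 left out and 0 without library 3 of both post-resection groups, that of 9 in intact tissues was 14 with DESeq2 and 6 to 11 with 1 left out, that of 15 after resection was 8 to 16 with 1 left out, the lowest being without library 3 of post-resection blood, and that of 0 for the difference was 4 with DESeq2 and 0 to 1 with 1 left out. The replicate block ended the blood calls of C1qa (1.60), C1qc (1.72) and C3 (2.09), the spleen call of C1ra (1.49) and the call of its difference (2.68), and no other; the labels do not tie the numbers to pairs.

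Signs turned as follows. Without library 3 of both post-resection groups the spleen effect was -0.046 for C3, -1.06 for Cfb and -0.20 for C3ar1, and with 1 library left out it ran from -0.039 to 1.14 for C3, -1.28 to 0.50 for C4b, -1.05 to 1.85 for Cfb and -0.20 to 0.96 for C3ar1. C3 in intact blood against spleen ran from -0.15 to 0.42. The difference between tissues ran from -0.39 to 0.21 for C1qa, -0.28 to 0.33 for C1qb and -0.16 to 0.51 for C1qc, and for C1qb it was 0.035 with RLE factors, 0.035 with DESeq2, 0.018 with no filter and 0.034 with symbol rows alone. For the 10 genes in 5 comparisons, 353 values from alternatives with all libraries or without library 3 of both post-resection groups kept sign and side of the threshold, 14 lost a call, 16 gained one and 7 turned sign; with 1 library left out the numbers were 534, 37, 10 and 19. The causes were not tested. Depth limits C1rb, C1s1 and C1s2 in spleen, where a library held 0 to 16 counts of each. It also limits C1rb (6, 0 and 3 counts) and C1s2 (1, 2 and 2 counts) in intact blood, and Serping1 (3, 4 and 5 counts) in intact spleen.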
